A study of Mus musculus with 18 samples.

Results

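The RNA of cortex from newborn mice lacking the CxxC zinc finger of KDM2B in the *Emx1* lineage was compared with that of control mice, as 2 control and 2 cKO libraries out of 18 RNA-seq libraries in the series, all at postnatal day 0. The deposited cortical table lists 54672 Ensembl genes, of which 15810 averaged 0.5 FPKM or more over the 4 libraries and were taken, 12428 of them protein-coding. FPKM are fragments per kilobase of gene, scaled to the mapped depth of the library. A further 24673 genes had no read in any library. cKO mice carry the genotype Kdm2bEmx1-delta-CxxC, in which loxP sites flank exon 13 of *Kdm2b* and are recombined by Cre expressed from *Emx1*. Control mice were Kdm2bfl/+ or Kdm2bfl/fl, so that floxed alleles are shared by both groups, and the labels do not tell which control has which genotype. No strain is given. The labels also do not say whether libraries came from separate animals, so p-values measure only the spread between these libraries, which may be technical.

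KDM2B is the subunit that brings the variant Polycomb complex PRC1.1 to CpG islands. Its CxxC zinc finger binds unmethylated CpG, and the complex, with the RING proteins as its catalytic core, PCGF1, and BCOR or BCORL1, ubiquitinates histone H2A at promoters that are usually silent or poised. *Emx1*-Cre acts in dorsal telencephalic progenitors and thus in their descendants, which are the excitatory neurons and much of the glia of the cortex. Interneurons that migrate in from the ventral telencephalon, vessels, microglia and the meninges lie outside that lineage. A change in the cortex as dissected can therefore come from recombined cells or from cells in which the allele is intact, and in bulk RNA fewer cells of a type and less RNA per cell cannot be told apart.

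The FPKM of each library are whole multiples of the value of 1 read, which gave between 18480515 and 21905224 reads on genes per library (100% of the non-zero values whole within 0.01 read). *mt-Co1*, the most abundant gene, took 0.697% to 0.814% of the reads. The control libraries correlated with each other at a Pearson r of 0.982 across the genes tested, the cKO libraries at 0.987, and libraries of different groups at 0.976 to 0.980. Markers of excitatory cortical neurons (*Neurod2*, *Tbr1* and 8 others) summed to 1152 and 1259 FPKM in controls and to 1199 and 1149 FPKM in cKO libraries, with 0 of 10 called, so the defining markers of the labelled tissue were present. The libraries differed in sex: control 1 had the Y-linked *Ddx3y* at 12.8 FPKM and *Xist* at 0.0177 FPKM, whereas control 2 and both cKO libraries had *Ddx3y* at 0 and *Xist* between 132 and 189 FPKM. Genes at the edge of the threshold were low in every library: *Filip1*, just inside, had 0.534, 0.471, 0.44 and 0.556 FPKM in control 1, control 2, cKO 1 and cKO 2, and *Plcd4*, just outside, 0.477, 0.621, 0.477 and 0.425 FPKM.

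*Kdm2b* itself (ENSMUSG00000029475, chr5:122870665-122989823) did not check the labels, because the deleted exon is a small piece of a gene summed as a whole. It stood at 15.7 and 16.9 FPKM in controls and 14.9 and 14.7 FPKM in cKO libraries. Both cKO values lay under both controls, but the log2 fold change of -0.13 ± 0.08 (SE) did not pass the test (adjusted p = 0.562). *Emx1*, whose promoter drives Cre, had 29.3 and 26.4 FPKM against 26 and 25.4 FPKM and was not called either (log2 fold change -0.11 ± 0.08, adjusted p = 0.648).

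Fold changes are on the log2(FPKM + 1) scale, where the change of a weakly expressed gene comes out too small. Calls required a log2 fold change past 0.4 or -0.4 with an unadjusted limma p under 0.05, the thresholds that the study's methods give for its hippocampal libraries. Of the 15810 genes, 746 (4.72%) were higher and 362 (2.29%) lower in cKO cortex (7.01% in all), and in all of these the groups did not overlap, as in 44.7% of all genes tested. Without control 1, the male library, 1222 genes were higher. With p-values adjusted by the Benjamini-Hochberg method, 59 (0.373%) were higher and 9 (0.0569%) lower, and limma-voom on the recovered reads gave 398 (2.52%) and 86 (0.544%). Among 12428 protein-coding genes 594 were higher and 137 lower. Of 234 miRNA genes 17 were higher and 42 lower, and of 479 antisense genes 8 were higher and 27 lower. Genes under 10 reads on average made up 61 of the 746 higher and 104 of the 362 lower genes. The log2 fold change was above 1 in 92 of the higher protein-coding genes and under -1 in 3 of the lower ones. The median over all genes was -0.01. Counts of called genes in the lists below are to be read against the shares over all genes, 4.72% higher and 2.29% lower.

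Of the 42 Polycomb genes tested, 2 rose and none fell, where 4.72% of all genes rose and 2.29% fell. The median of the list was -0.01. Both genes that rose passed the adjusted threshold, which 0.373% of all genes passed with a rise. *Bcor* (ENSMUSG00000040363, chrX:12036740-12160355), which encodes the scaffold subunit of PRC1.1, had 8.42 and 9.24 FPKM in controls and 24.2 and 19.7 FPKM in cKO libraries. Both cKO libraries lay well above both controls, and the log2 fold change was 1.22 ± 0.12 (adjusted p = 0.0428). *Epop*, an accessory subunit that joins PRC2 to elongin, rose from 5.94 and 6.26 FPKM to 22.6 and 18.5 FPKM (1.59 ± 0.11, adjusted p = 0.0248). *Bcor* is on the X chromosome. It had 8.42 FPKM in the male control and 9.24 FPKM in the female one, and both cKO libraries were female. An effect of sex was not tested.

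The other PRC1.1 genes were not called. *Bcorl1*, the paralog of *Bcor*, came nearest, with 5.4 and 5.45 FPKM in controls and 8.14 and 6.63 FPKM in cKO libraries (log2 fold change 0.38 ± 0.11, adjusted p = 0.275), and limma-voom on the recovered reads put it past the fold threshold at 0.44. *Pcgf1*, *Rnf2*, *Ring1*, *Rybp*, *Yaf2*, *Usp7* and *Skp1a* had log2 fold changes between -0.13 and 0.13. None of the 10 canonical PRC1 genes, such as *Bmi1* and *Cbx8*, and none of the 10 genes of other variant PRC1 complexes was called. Among the core PRC2 genes *Ezh2* stood at -0.14, *Eed* at 0.03 and *Suz12* at 0.06.

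Many rises in cKO cortex were found in cKO hippocampus too, which was measured in 3 control and 3 cKO libraries of a separately normalized table that shares no sample with the cortex. Of the 746 genes higher in cortex, 564 could be tested in both tissues (4.64% of the genes so tested) and 155 of these were also higher in hippocampus, which is 27.5% of the cortical and 37.9% of the 409 hippocampal rises. Over all 12163 genes tested in both tissues, 3.36% were higher in hippocampus. Of the 148 testable genes lower in cortex, 27 (18.2%) were lower in hippocampus, against 1.5% of all genes. Of the 564 genes higher in cortex 9 were lower in hippocampus, where 1.5% of all genes were lower. Of the 148 lower in cortex 3 were higher in hippocampus, where 3.36% of all genes were higher.

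*Pth1r* (ENSMUSG00000032492, chr9:110722085-110747145), the receptor for parathyroid hormone, led the shared rises. It was at 2.68 and 2.67 FPKM in controls and 14.6 and 13.5 FPKM in cKO cortex (log2 fold change 2.03 ± 0.08, adjusted p = 0.00668), and changed by 1.75 in hippocampus. *Prph*, which encodes the intermediate filament peripherin of peripheral neurons, went from 0.227 and 0.306 FPKM to 3.97 and 4.09 FPKM (1.99 ± 0.11, adjusted p = 0.015; hippocampus 1.73). In both genes the replicates of a group lay close together and far from the other group.

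*Nab2*, a corepressor of EGR factors, stood at 2.56 and 2.21 FPKM in controls and 11.8 and 9.22 FPKM in cKO cortex (1.76 ± 0.14, adjusted p = 0.0259). *Clcf1*, a cytokine of the interleukin family that signals through gp130, rose from 0.208 and 0.076 FPKM to 1.93 and 2.36 FPKM (1.46 ± 0.15, adjusted p = 0.0437). In hippocampus the changes of *Nab2* and *Clcf1* were 0.96 and 0.53, both called higher. The difference between tissues was called for *Clcf1* (limma, adjusted p = 0.0271), with the larger log2 change in cortex, and not for *Nab2* (adjusted p = 0.152). In the separately normalized hippocampal controls *Clcf1* stood at 8.86, 7.23 and 9.77 FPKM. On a log scale the size of a change depends on that starting level.

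*Nxph4*, a neurexophilin and a marker of subplate neurons, rose from 9.59 and 8.99 FPKM to 35.2 and 25.4 FPKM (1.59 ± 0.16, adjusted p = 0.0458; hippocampus 1.39). *Prdm12*, a regulator of nociceptor development, was nearly silent in controls at 0.0184 and 0.133 FPKM and had 1.92 and 2.16 FPKM in cKO cortex (1.5 ± 0.14, adjusted p = 0.0403; hippocampus 0.81). *Scx* and *Col2a1*, of tendon and cartilage, and *Zic1*, of dorsal neural tissue and meninges, are other genes with little activity in cortical neurons. *Scx* had 1.02 and 0.914 FPKM in controls and 2.87 and 3.57 FPKM in cKO cortex, with log2 fold changes of 1.1 in cortex and 1.56 in hippocampus. *Col2a1* had 2.66 and 2.21 FPKM and 6.01 and 5.25 FPKM, with 0.95 and 1.85. *Zic1* had 2.49 and 2.21 FPKM and 5.97 and 4.32 FPKM, with 0.86 and 1.32. The difference between tissues was called for *Col2a1* (limma, adjusted p = 0.0444) and not for *Scx* or *Zic1* (adjusted p = 0.471 and 0.52). *Prph*, *Nab2*, *Clcf1*, *Prdm12*, *Scx*, *Col2a1* and *Zic1* were chosen after their values were seen.

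**Figure D1:**
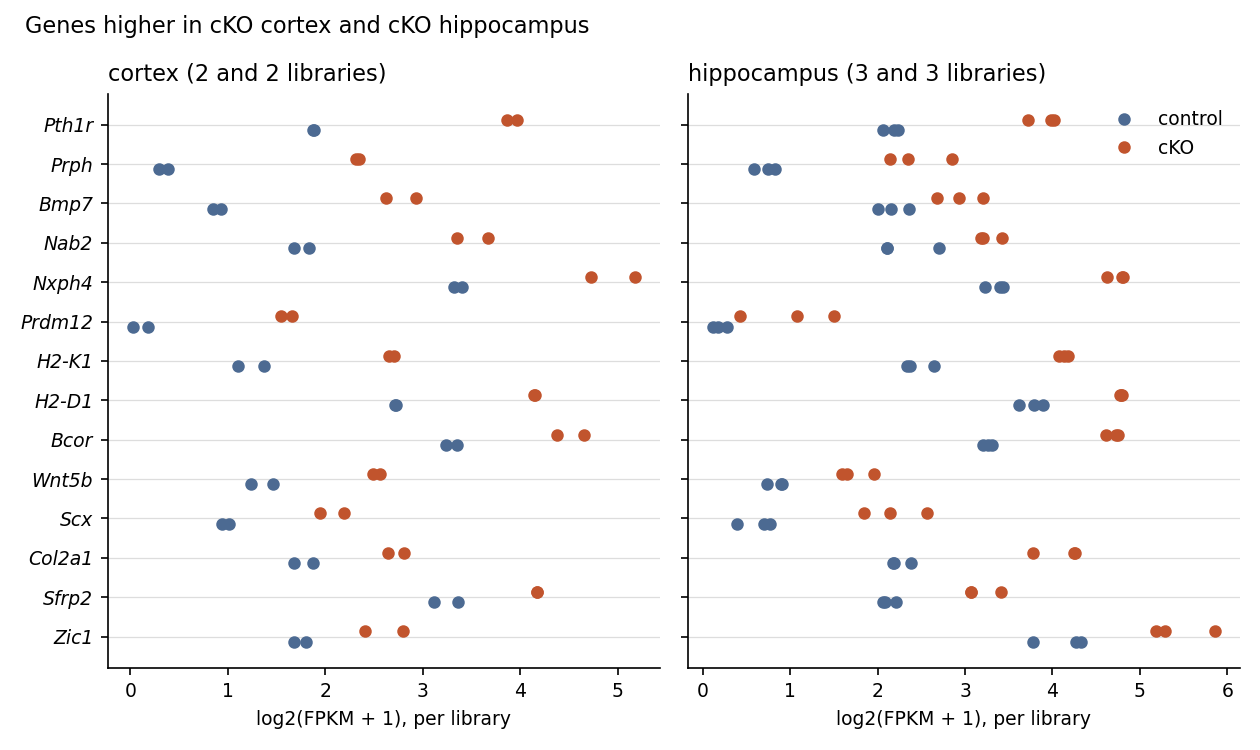
Each point is a library, placed by its log2(FPKM + 1) value, for 14 genes called higher in cKO cortex (left) and cKO hippocampus (right), with controls in blue and cKO in orange. The groups do not overlap in any of the 14 genes in cortex, as in every gene called higher and in 44.7% of all genes tested. Levels cannot be compared between the panels because the tables were normalized separately.

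Genes of MHC class I antigen presentation, which display peptides at the cell surface, rose as a group: 5 of 6 tested were higher and none lower, with a median log2 fold change of 0.93. *H2-D1*, a classical heavy chain, had 5.6 and 5.56 FPKM in controls and 16.8 and 16.6 FPKM in cKO libraries (1.43 ± 0.07, adjusted p = 0.0117). *H2-K1* had 1.58 and 1.15 FPKM and 5.31 and 5.52 FPKM (1.44 ± 0.12, adjusted p = 0.0312). *B2m*, the shared light chain, had 9.71 and 12.7 FPKM and 30.1 and 23.6 FPKM (1.19 ± 0.17, adjusted p = 0.0957). All 3 were separated between groups, as were 44.7% of all genes tested, and were called higher in hippocampus too (1.02, 1.68 and 0.64). Paralogs of this family are near-identical, so reads could be split between them. Of 8 interferon response genes, 3 rose and 1 fell: *Ifitm3* had 1.81 and 1.32 FPKM and 6.99 and 4.1 FPKM (1.32 ± 0.24), whereas *Ifit2* had 4.36 and 3.99 FPKM and 2.09 and 2.79 FPKM (-0.60 ± 0.13), and *Stat2*, *Isg15* and *Irf9* were not called. The adjusted p was 0.128 for *Ifitm3* and 0.182 for *Ifit2*.

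Since the deleted zinc finger reads CpG, the promoters of several rises are shown, taken from RefSeq on GRCm38.p6 as the 300 bases from 250 before to 50 after a start, 5′ to 3′, with each CpG (the letters CG) in capitals. *Pf4*, *Cldn11* and *Pth1r* are among the 12 largest rises. *Bcor* and *Wnt5b* were added after their values were seen, as a Polycomb gene and a Wnt ligand that rose in both tissues. In all 5 the RefSeq start coincided with the deposited gene start.
Pf4 (chr5:90772185-90772484, plus strand): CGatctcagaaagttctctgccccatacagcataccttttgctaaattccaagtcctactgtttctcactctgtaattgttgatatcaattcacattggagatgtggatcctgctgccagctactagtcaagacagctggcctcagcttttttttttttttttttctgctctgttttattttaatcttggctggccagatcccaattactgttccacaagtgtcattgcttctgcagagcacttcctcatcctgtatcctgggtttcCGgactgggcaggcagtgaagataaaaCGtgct
Cldn11 (chr3:31149670-31149969, plus strand): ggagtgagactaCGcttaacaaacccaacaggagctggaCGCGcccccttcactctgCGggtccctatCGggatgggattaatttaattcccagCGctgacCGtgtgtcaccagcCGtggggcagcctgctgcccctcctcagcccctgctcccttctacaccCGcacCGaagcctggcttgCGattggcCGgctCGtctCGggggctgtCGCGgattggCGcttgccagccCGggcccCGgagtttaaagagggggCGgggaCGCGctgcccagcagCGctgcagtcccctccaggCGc
Pth1r (chr9:110747096-110747395, minus strand): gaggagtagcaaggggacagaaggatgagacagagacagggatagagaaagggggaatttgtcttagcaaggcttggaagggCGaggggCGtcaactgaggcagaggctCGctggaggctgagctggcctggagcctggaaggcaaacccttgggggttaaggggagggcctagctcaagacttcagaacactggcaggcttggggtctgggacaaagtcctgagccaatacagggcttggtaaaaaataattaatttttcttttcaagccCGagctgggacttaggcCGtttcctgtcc
Bcor (chrX:12160306-12160605, minus strand): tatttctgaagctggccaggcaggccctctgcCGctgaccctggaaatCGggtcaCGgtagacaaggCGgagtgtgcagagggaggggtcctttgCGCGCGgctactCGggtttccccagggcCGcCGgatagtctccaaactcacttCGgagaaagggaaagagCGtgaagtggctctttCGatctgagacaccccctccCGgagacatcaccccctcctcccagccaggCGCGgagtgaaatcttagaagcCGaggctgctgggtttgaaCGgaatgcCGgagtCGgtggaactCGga
Wnt5b (chr6:119544298-119544597, minus strand): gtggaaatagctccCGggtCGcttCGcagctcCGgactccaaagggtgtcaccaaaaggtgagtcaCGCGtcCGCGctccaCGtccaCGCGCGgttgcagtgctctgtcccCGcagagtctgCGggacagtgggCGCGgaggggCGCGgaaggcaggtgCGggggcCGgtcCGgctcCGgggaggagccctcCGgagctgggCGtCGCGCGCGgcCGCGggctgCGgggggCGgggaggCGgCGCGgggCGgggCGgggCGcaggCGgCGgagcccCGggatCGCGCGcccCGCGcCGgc

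The 5 promoters held 3, 24, 5, 21 and 47 CpG in that order, so both dense and sparse windows were found among the rises. Of all windows of protein-coding genes tested, 99.7% held at least 1 CpG. Of 9702 protein-coding genes tested with a promoter entry, the median window held 21 CpG and 85.8% held at least 10. The 439 higher genes with an entry had a median of 18 CpG and 74.3% with at least 10, and the 94 lower genes 11 CpG and 57.4%. Genes higher in both tissues (119 with an entry) had a median of 20 CpG, and 81.5% held at least 10. Genes higher in cortex and not in hippocampus (292) had 18 CpG and 71.9%. For the 8 meninges markers with an entry, the median was 8.5 CpG and 50% held at least 10. A count of CpG is a description of these windows and carries no test of binding.

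Genes of the meninges, the fibroblast layers that wrap the brain, rose throughout: 11 of 11 markers tested were higher, 6 of them with an adjusted p under 0.05, at a median log2 fold change of 2.02. The 13 markers of the list summed to 2.8 and 3.94 FPKM in controls and to 55 and 38.7 FPKM in cKO libraries, and none of the 13 was at 0 in all 4 libraries. *Foxd1* and *Nnmt*, the members not tested, had at most 0.75 and 0.288 FPKM. In the 6 hippocampal libraries, from the separately normalized table, the same list summed to between 47.4 and 76.8 FPKM, with 0 of 10 called and a median of -0.14. For all 10 the difference between the tissues was called.

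*Pf4* (ENSMUSG00000029373, chr5:90772435-90773383), a chemokine of platelets and of the macrophages at brain borders, rose most, from 0.252 and 0.0652 FPKM to 10.9 and 7.19 FPKM (log2 fold change 3.10 ± 0.21, adjusted p = 0.0217). Its control values rest on 4 reads and 1 read. *Cldn11*, a tight junction protein of the arachnoid barrier and of myelin, had 0.17 and 0.377 FPKM in controls and 7.65 and 8.84 FPKM in cKO libraries (2.86 ± 0.13, adjusted p = 0.0112). *Dcn* and *Lum*, proteoglycans of fibroblasts, had 0.303 and 0.443 FPKM and 0.241 and 0.288 FPKM in controls and rose by 2.33 and 2.24 (adjusted p = 0.0117 and 0.0403). *Col3a1*, a fibrillar collagen, had 10.5 and 4.14 FPKM in cKO 1 and cKO 2 against 0.25 and 0.451 FPKM in controls (2.51 ± 0.38, adjusted p = 0.101).

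*Slc6a13* and *Ogn*, also on the meninges list, rose by 2.02 and 2.02 (adjusted p = 0.0259 and 0.0174). *Colec12*, a scavenger receptor, stood at 0.328 and 0.382 FPKM in controls and 10.3 and 6.71 FPKM in cKO libraries (2.79 ± 0.20, adjusted p = 0.0248). *Ptgds*, the prostaglandin D synthase of leptomeninges, stood at 1.13 and 2.25 FPKM and 9.54 and 21.9 FPKM (2.56 ± 0.41, adjusted p = 0.111). Of the 12 largest rises among protein-coding genes, 11 differed from hippocampus by the test of the difference, and *Pth1r* did not (adjusted p = 0.391).

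**Figure D2:**
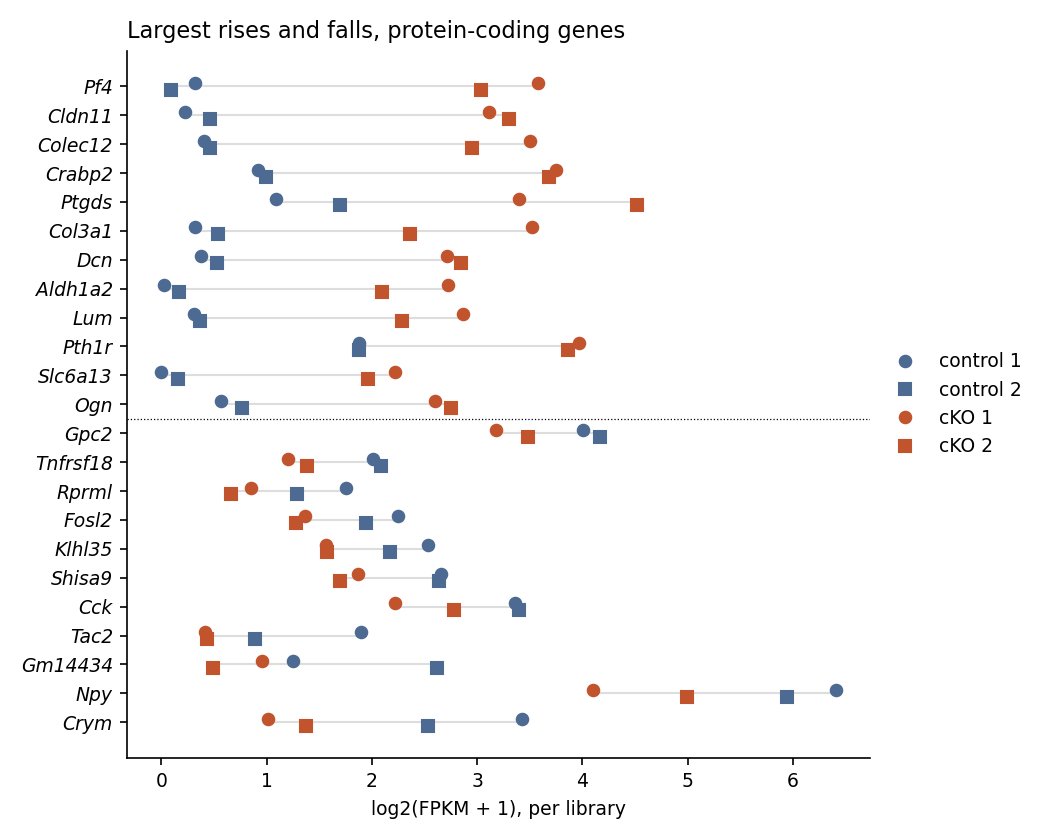
Points are the 4 cortex libraries, placed by log2(FPKM + 1), for the 12 protein-coding genes with the largest rises (top) and 11 of the 12 with the largest falls (bottom); circles are replicate 1 and squares replicate 2. Rises such as *Cldn11* and *Crabp2* set both cKO libraries far from both controls, whereas several falls, such as *Tac2* and *Gm14434*, have 1 control far above the other.

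*Mrc1*, a mannose receptor of macrophages at brain borders, had 0.128 and 0.133 FPKM in controls and 4.2 and 2.03 FPKM in cKO libraries (1.81 ± 0.27, adjusted p = 0.0996). *Lyve1* and *F13a1*, also active in such macrophages and chosen after their values were seen, had 0.0155 and 0.0806 FPKM and 0.0539 and 0.175 FPKM in controls and rose by 1.81 and 1.85 (adjusted p = 0.0967 and 0.0813). The microglia list, which includes *Mrc1*, had 6 of 13 higher and none lower, and summed to 36.2 and 31.3 FPKM in controls and 59.5 and 48.9 FPKM in cKO libraries. In hippocampus 7 of its 13 tested members were higher. Complement *C1qa* and *C1qb* rose by 0.94 and 0.72 (adjusted p = 0.175 and 0.128). *P2ry12* and *Tmem119*, which set microglia apart from border macrophages, had log2 fold changes of -0.32 and 0.27 and were not called. Of the 13 members tested in cortex 12 were above 0 and only 1, *P2ry12*, was below, with a median of 0.30.

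Vessel markers were higher in 6 of 14, with none lower and sums of 83.7 and 80.3 FPKM against 133 and 122 FPKM. *Cldn5*, a tight junction protein of endothelium, had 25.6 and 23.9 FPKM in controls and 39.8 and 40.9 FPKM in cKO libraries (0.68 ± 0.08, adjusted p = 0.0577). *Vtn*, of pericytes, had 4.96 and 5.61 FPKM and 17.2 and 11.7 FPKM (1.28 ± 0.18, adjusted p = 0.0967). *Pecam1* and *Flt1*, also endothelial, were not called, at 0.22 and 0.23. Of 5 blood cell genes, 3 globin genes were higher, and the list summed to 435 and 454 FPKM in controls and 712 and 624 FPKM in cKO libraries.

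Other lists did not move together. Astrocyte markers were higher in 2 of 8, namely *Gja1*, which encodes connexin 43 (1.41 and 1.42 FPKM against 6.6 and 6.02 FPKM, 1.60 ± 0.09, adjusted p = 0.016), and *Apoe*, an apolipoprotein (16.5 and 12.8 FPKM against 40.9 and 30.5 FPKM, 1.22 ± 0.18, adjusted p = 0.0996). Both genes are also active in meninges, and *Aldh1l1*, *Aldoc*, *Slc1a2* and *Slc6a11* had log2 fold changes between -0.53 and -0.09. Of 10 oligodendrocyte lineage genes, *Pdgfra* was higher (0.80 ± 0.10, adjusted p = 0.0781) and *Olig1*, *Olig2* and *Sox10* were not called. Of 12 choroid plexus markers 1 could be tested and was higher, the water channel gene *Aqp1*, with 0.104 and 0.34 FPKM in controls and 1.47 and 1.18 FPKM in cKO libraries (0.93 ± 0.17, adjusted p = 0.128). *Ttr*, the defining marker of that tissue, had at most 0.849 FPKM, and the list summed to between 1.44 and 2.31 FPKM per library. Of 8 hippocampal markers 1 was higher and 1 lower, and of 3 thalamic markers none was called. The striatum list summed to 30.1 and 33.1 FPKM in controls and 38.7 and 55.3 FPKM in cKO libraries, with 1 of 12 called (*Ppp1r1b*, 0.56 ± 0.07).

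**Figure D3:**
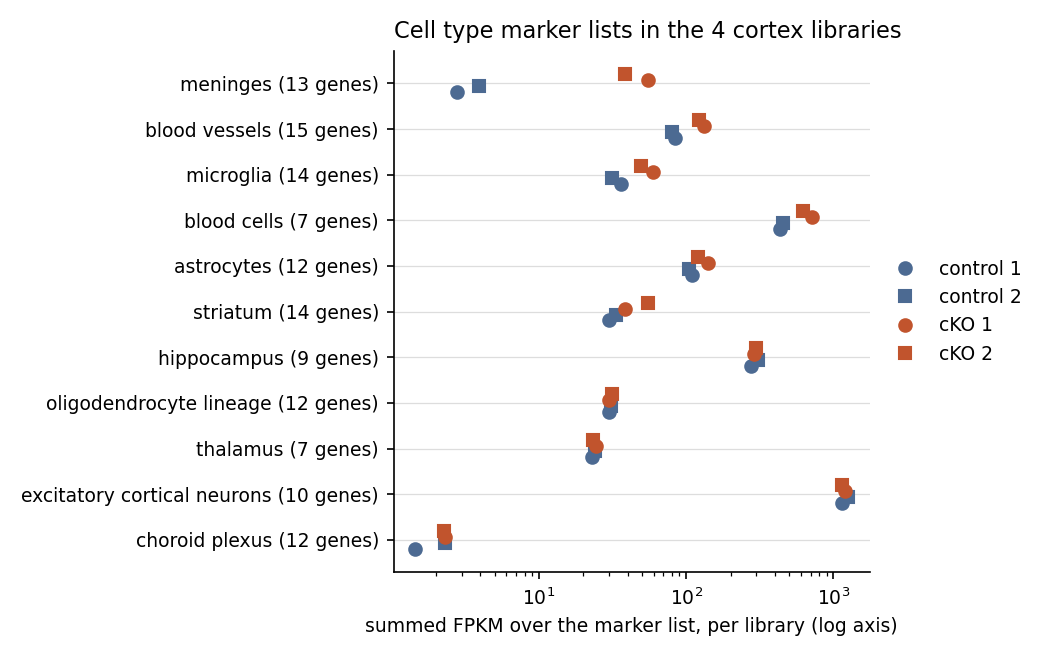
Each row is a list of cell type markers, and each point the FPKM summed over the list in a library, on a log axis, with controls in blue and cKO in orange. The meninges list separates the groups by the widest gap of the 11 lists, at 2.8 and 3.94 FPKM against 55 and 38.7 FPKM, while neuronal, oligodendrocyte and thalamus sums overlap between the groups.

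Wnt signaling genes were higher in 10 of 49 tested and lower in none, against 4.72% and 2.29% of all genes. Their median log2 fold change was 0.15. Among the ligands 2 of 6 rose. *Wnt5b*, a ligand linked to noncanonical signaling, had 1.76 and 1.36 FPKM in controls and 4.91 and 4.61 FPKM in cKO libraries (1.17 ± 0.11, adjusted p = 0.0428), and *Wnt3* had 0.384 and 0.382 FPKM and 0.844 and 1.3 FPKM (0.58 ± 0.16, adjusted p = 0.262). *Wnt7b*, the most abundant ligand, had 67.4 and 63.8 FPKM and 80.6 and 74.1 FPKM, which did not pass the fold threshold (0.23 ± 0.09). The hem ligands *Wnt8b* and *Wnt3a* and the ligand *Wnt10a* stayed at or below 0.108 FPKM in every library. *Wnt6* was just under the threshold for testing, with 0.0621 and 0.0429 FPKM in controls and 1.39 and 0.464 FPKM in cKO libraries.

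Of 13 receptors, *Fzd9* rose, from 3.58 and 3.55 FPKM to 5.73 and 6.18 FPKM (0.61 ± 0.08, adjusted p = 0.0957). Among 8 secreted modulators 3 rose: *Sfrp2*, a Wnt antagonist that marks the antihem, had 7.67 and 9.29 FPKM in controls and 17.1 and 17.1 FPKM in cKO libraries (0.94 ± 0.10, adjusted p = 0.0577), *Sfrp1* rose by 0.52 and *Dkk2* by 0.48 (adjusted p = 0.186 and 0.271). None of 13 transducers, such as *Ctnnb1*, *Apc* and *Gsk3b*, was called, and their log2 fold changes lay between -0.20 and 0.13.

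The transcription factors and feedback targets of the canonical pathway rose in 4 of 9. *Tcf7* had 1.54 and 1.49 FPKM in controls and 3.9 and 3.4 FPKM in cKO libraries (0.89 ± 0.10, adjusted p = 0.0656). *Ccnd1*, cyclin D1, had 5.74 and 6.05 FPKM and 11.3 and 9.64 FPKM (0.73 ± 0.10, adjusted p = 0.0957). The feedback inhibitors *Nkd1* and *Nkd2* rose by 0.53 and 0.69 (adjusted p = 0.192 and 0.101). *Axin2*, the usual readout of canonical Wnt activity, had 4.11 and 3.43 FPKM and 5.23 and 4.32 FPKM and was not called (0.28 ± 0.13, adjusted p = 0.463), and *Lef1* was too low to test at 0.203 to 0.597 FPKM. Except for *Wnt5b*, no Wnt gene passed the adjusted threshold.

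Genes listed as signals of the cortical hem, the dorsomedial organizer, rose in 3 of 8 tested. Which cells these rises came from was not tested. *Bmp7* had 0.802 and 0.901 FPKM in controls and 6.6 and 5.16 FPKM in cKO libraries (1.89 ± 0.13, adjusted p = 0.0248), and *Bmp6* had 0.0931 and 0.0965 FPKM and 2.73 and 1.73 FPKM (1.54 ± 0.19, adjusted p = 0.0727). *Msx1*, a target of BMP signaling, had 0.176 and 0.106 FPKM and 1.73 and 0.898 FPKM (1.00 ± 0.21, adjusted p = 0.177). For the hem proper, *Lmx1a*, *Gdf7* and *Wnt3a* were under the threshold for testing. *Id3* and *Smad6*, further BMP targets, rose by 0.70 and 0.78 (adjusted p = 0.346 and 0.157), and *Grem1*, a BMP antagonist, fell by 0.48 (adjusted p = 0.344). Of 22 BMP and TGF-beta genes, 5 rose and 1 fell. FGF genes rose in 2 of 15 and fell in 1, Notch genes rose in 1 of 15 (*Nrarp*, a feedback inhibitor, by 0.49), and none of 10 Hedgehog genes was called. Over all genes 4.72% rose and 2.29% fell.

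Retinoic acid genes rose in 4 of 10 and fell in none. *Crabp2*, a retinoic acid carrier, had 0.892 and 0.996 FPKM in controls and 12.4 and 11.8 FPKM in cKO libraries (2.76 ± 0.09, adjusted p = 0.00668). *Aldh1a2*, the enzyme that makes retinoic acid in meninges and a member of that marker list, had 0.02 and 0.125 FPKM and 5.6 and 3.28 FPKM (2.31 ± 0.23, adjusted p = 0.0435). *Rarg*, a retinoic acid receptor, rose by 0.46 (adjusted p = 0.18). Of 26 imprinted genes 3 rose and none fell, against 4.72% and 2.29% of all genes. The 3 were *H19*, *Igf2* and *Cdkn1c*. *H19* went from 9.98 and 8.76 FPKM to 48.7 and 49.3 FPKM (2.27 ± 0.09, adjusted p = 0.00668), and *Igf2* rose by 0.93 (adjusted p = 0.146). Of 6 regulators of mesoderm and endoderm tested, 3 rose and none fell. They were the mesenchymal regulators *Tbx18*, *Twist1* and *Prrx1*, which rose by 1.26, 0.69 and 0.62 (adjusted p = 0.19, 0.242 and 0.19).

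Rises among MHC class I, Wnt, BMP, retinoic acid, imprinted, mesenchymal, vessel and microglia genes shared the 2 cKO libraries with the meninges list. With 2 libraries per group this holds for any gene called higher. The meninges list summed to 2.8 and 3.94 FPKM in controls and 55 and 38.7 FPKM in cKO libraries. The part of that list's cells in these rises was not tested. In hippocampus 5 of 6 MHC class I, 7 of 13 microglia and 0 of 14 vessel genes were called higher. The difference from hippocampus, where 0 of 10 meninges markers were called, was called for *Bmp7*, *Bmp6*, *Crabp2*, *Aldh1a2*, *H19* and *Igf2* (adjusted p from 3.07e-07 to 0.028) and was not called for *Msx1*, *Rarg*, *Wnt5b*, *Sfrp2* and *Bcor* (adjusted p from 0.459 to 0.912). In hippocampal controls *Crabp2* had 104, 91.7 and 96.1 FPKM and *Igf2* 35.9, 28.9 and 38.4 FPKM. From such levels a given gain in FPKM is a small log2 change. *H19* had 8.19, 5.3 and 8.87 FPKM there.

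Most regulators of other body regions were too low to test. None of 39 *Hox* genes and none of 27 hindbrain and spinal cord regulators reached the threshold for testing, and the *Hox* genes summed to at most 0.117 FPKM in a library. Of 5 diencephalic and ventral telencephalic regulators tested, none was called, and of 6 mesoderm and endoderm regulators tested the 3 given above rose. The homeobox genes *Nkx2-3* and *Msx3*, chosen after their values were seen, did rise. *Nkx2-3* had 0.494 and 0.691 FPKM in controls and 4.56 and 4.81 FPKM in cKO libraries (1.84 ± 0.11, adjusted p = 0.0174). *Msx3*, a dorsal neural tube gene, had 0.578 and 0.639 FPKM and 3.35 and 3.61 FPKM (1.48 ± 0.11, adjusted p = 0.0248).

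Of 23 radial glia genes 1 rose and 1 fell, where 7.01% of all genes were called. *Nes*, which encodes nestin, rose from 24.8 and 21.3 FPKM to 39.1 and 33.9 FPKM (0.64 ± 0.11, adjusted p = 0.128). *Tnc*, the matrix glycoprotein tenascin C, fell from 19.3 and 21.3 FPKM to 11.8 and 12 FPKM (-0.73 ± 0.08, adjusted p = 0.0572). The other 21, with *Pax6* at 0.16 ± 0.08 and *Sox2* at 0.28, were not called. Of 19 genes of the neurogenic cascade, *Neurog1* was called higher (1.7 and 1.51 FPKM against 3.71 and 2.32 FPKM, 0.61 ± 0.19, adjusted p = 0.3). *Eomes*, the marker of intermediate progenitors, had 39.7 and 40.2 FPKM in controls and 41.6 and 36.3 FPKM in cKO libraries, so the groups overlapped (-0.04 ± 0.09). *Neurog2* had 67.6 and 67.8 FPKM and 94.9 and 81.5 FPKM (0.37 ± 0.10), and *Neurod1* 19 and 17.5 FPKM and 14.6 and 13.3 FPKM (-0.36 ± 0.09). Both lay on one side of the controls and neither reached the fold threshold.

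None of 20 S phase and none of 20 G2/M phase genes was called, with medians of 0.01 and 0.03 (*Pcna* 0.16, *Mki67* -0.02, *Top2a* -0.02). D cyclins and CDK inhibitors, which set the exit from the cycle, rose in 4 of 8 with a median of 0.40. *Cdkn1c*, the inhibitor p57, had 34.3 and 27.2 FPKM in controls and 52.8 and 46.4 FPKM in cKO libraries (0.68 ± 0.14, adjusted p = 0.159), *Cdkn1a*, the inhibitor p21, rose by 0.64 (adjusted p = 0.243), and *Ccnd1* and *Ccnd3* by 0.73 and 0.40. Both drivers and inhibitors of the cycle were among the rises.

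Of 47 genes of cortical layers, subplate and area patterning, 2 were higher and 4 lower, where 7.01% of all genes were called. Of 16 upper layer genes none was called, with a median of -0.01 (*Cux2* -0.22). Among 16 deep layer genes *Crym*, the thyroid hormone binding protein mu-crystallin, fell most of all protein-coding genes, from 9.76 and 4.8 FPKM to 1.02 and 1.59 FPKM (-1.79 ± 0.31, adjusted p = 0.126), and *Syt6* rose by 0.47 (adjusted p = 0.252). *Bcl11b*, *Fezf2* and *Tbr1* stood at 0.27, -0.03 and 0.06 and were not called. Subplate genes went both ways, with *Nxph4* up as above and *Nr4a2* down from 11 and 6.98 FPKM to 4.87 and 5.35 FPKM (-0.68 ± 0.20, adjusted p = 0.284).

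Of 12 genes of area patterning, the 2 that fell were the COUP-TF factors, which set caudal and lateral identity. *Nr2f1* had 54.4 and 47.7 FPKM in controls and 31.5 and 30.7 FPKM in cKO libraries (-0.70 ± 0.09, adjusted p = 0.0883), and *Nr2f2* 2.84 and 1.97 FPKM and 1.65 and 1.4 FPKM (-0.42 ± 0.16, adjusted p = 0.373). *Emx2*, *Sp8* and *Lmo3* had log2 fold changes between -0.07 and 0.07. Of 9 Cajal-Retzius genes *Nhlh2* fell by 0.53 (adjusted p = 0.267), and *Reln* was not called at -0.18.

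Neuronal function genes fell in 9 of 60 and rose in 1, against 2.29% and 4.72% of all genes, with a median of -0.14. Of the falls, 5 were among the 24 receptors and postsynaptic genes. *Gria3*, an AMPA receptor subunit, had 7.52 and 7.54 FPKM in controls and 5.41 and 5.44 FPKM in cKO libraries (-0.41 ± 0.07, adjusted p = 0.129). *Dlg2*, the scaffold PSD-93, had 10.3 and 11.5 FPKM and 6.84 and 7.98 FPKM (-0.50 ± 0.10, adjusted p = 0.167). *Cck*, the neuropeptide cholecystokinin, had 9.28 and 9.52 FPKM and 3.67 and 5.86 FPKM (-0.88 ± 0.19, adjusted p = 0.18), and *Gria4* and *Gabra2* fell by 0.41 and 0.54. *Cck* and *Dlg2* were called lower in hippocampus too, at -1.54 and -0.41.

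The neurofilament genes *Nefl* and *Nefm* and the sodium channel gene *Scn3a* fell by 0.54, 0.43 and 0.40 (adjusted p = 0.196, 0.253 and 0.19), the synapsin gene *Syn2* by 0.41 (adjusted p = 0.307), and the potassium channel gene *Kcna1* rose by 0.48. *Map2*, *Tubb3*, *Rbfox3* and *Snap25* were not called, with log2 fold changes from -0.15 to 0.05. No gene of this list passed the adjusted threshold. Immediate early genes rose in 1 of 9 and fell in 2.

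Among 17 interneuron genes *Npy*, the neuropeptide Y gene, fell from 83.9 and 60.4 FPKM to 16.1 and 30.9 FPKM (-1.63 ± 0.33, adjusted p = 0.159), and *Gad1*, *Gad2*, *Lhx6* and *Sst* had values between -0.11 and 0.21. *Tac2*, a tachykinin gene, had 2.73 and 0.853 FPKM in controls and 0.333 and 0.349 FPKM in cKO libraries (-0.97 ± 0.34, adjusted p = 0.343), with control 1 well above control 2. *Gm14434* was highest in control 2, at 1.37 and 5.14 FPKM against 0.936 and 0.405 FPKM. *Shisa9*, an AMPA receptor auxiliary subunit, fell with tighter replicates, from 5.32 and 5.24 FPKM to 2.64 and 2.23 FPKM (-0.87 ± 0.10, adjusted p = 0.0597), as did *Gpc2*, a glypican of growing neurites, from 15.1 and 17 FPKM to 8.07 and 10.2 FPKM (-0.75 ± 0.13, adjusted p = 0.12). *Fosl2*, a Fos family factor, *Klhl35*, *Rprml* and *Tnfrsf18* completed the largest falls, with log2 fold changes from -0.79 to -0.75.

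**Figure D4:**
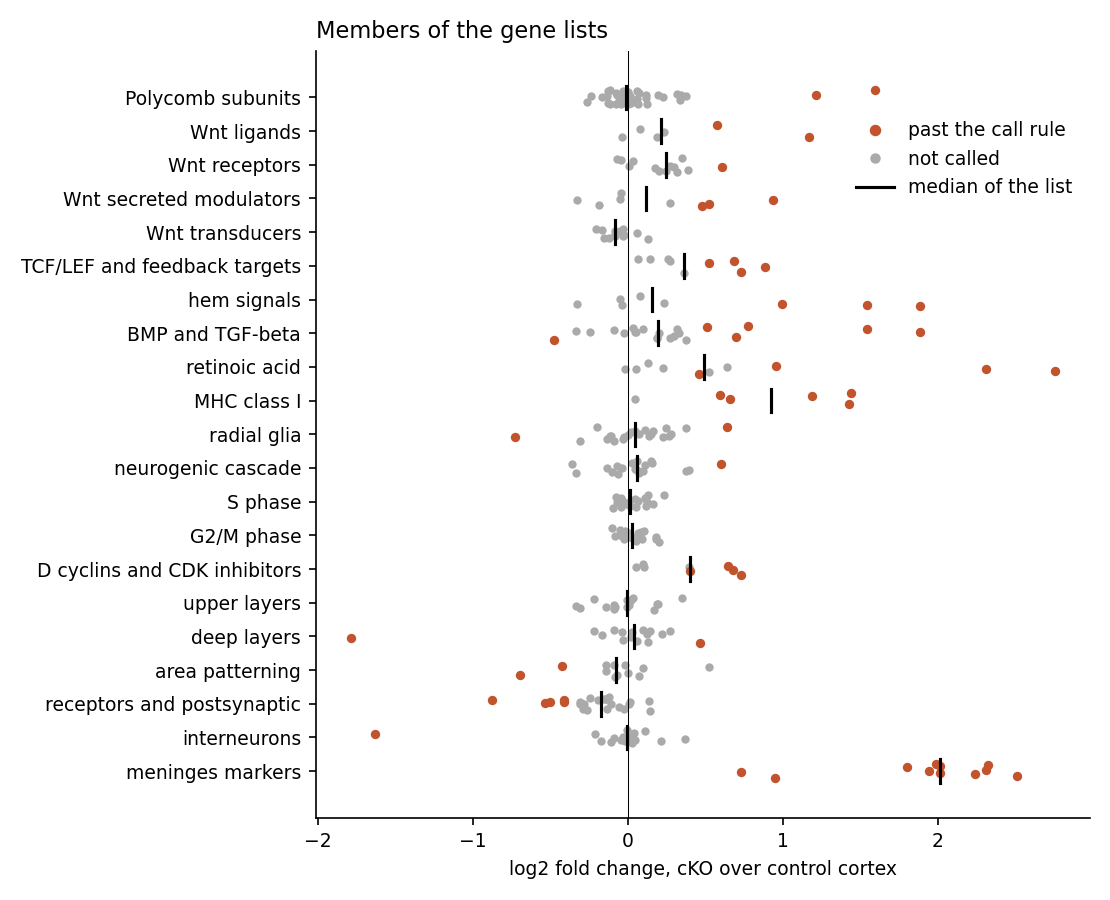
Each point is a gene, placed by its log2 fold change in cKO over control cortex (x axis), in 21 gene lists and roles (rows); orange points pass the call rule and the bar is the median of the row. Cell cycle phase, upper layer and Polycomb rows cluster at 0 with few calls, while the meninges row, with a median of 2.02, and MHC class I, with 0.93, lie to the right.

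None of the 9 falls with an adjusted p under 0.05 was protein-coding. Of these, 6 were short RNA genes with no read in either cKO library and between 2 and 7 reads in each control, *Mir6998* among them with 5 and 4 reads. limma-voom, which weights genes by their read counts, gave 1 of the 9 an adjusted p under 0.05, against 58 of the 59 rises. Per the study's methods RNA was selected by poly(A), and such libraries are not made to measure such short RNAs. Among cytosolic ribosomal protein genes 2 of 77 were higher (*Rpl17* by 0.91 and *Rpl21* by 0.79), against 4.72% of all genes. Their median was 0.24, and these genes share sequence with many pseudogenes. None of 13 mitochondrially encoded protein-coding genes and none of 8 motile cilium genes was called.

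The change in cortex was tested against that in hippocampus gene by gene, over 12163 genes. The test compares log2 changes, so a given gain in FPKM counts for less where the starting level is higher. The difference was called at an adjusted p under 0.05 for 225 genes (1.85%), with the cortical change above the hippocampal one in 156 (1.28%) and below it in 69 (0.567%). Without cortex control 1 the first count was 382, and without cortex cKO 1 the counts were 79 and 30. Besides the meninges list, genes with the cortical change above included *Gja1*, which is also active in meninges, and *Tcf7*. *Gja1* changed by 1.60 in cortex and -0.24 in hippocampus (difference 1.84, adjusted p = 0.000133). *Tcf7* changed by 0.89 and 0.20 (difference 0.69, adjusted p = 0.0323).

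Several genes of progenitors and neurogenesis differed with the opposite sign. *Eomes* changed by -0.04 in cortex and by 1.16 in hippocampus (difference -1.19, adjusted p = 0.000646). *Neurog2* changed by 0.37 and 1.42 (difference -1.05, adjusted p = 0.004), *Neurod1* by -0.36 and 0.29 (adjusted p = 0.00666) and *Pax6* by 0.16 and 0.83 (adjusted p = 0.0433). Of the 18 neurogenic genes tested in both tissues, 7 were higher in hippocampus and 4 had a called difference, all with cortex below. *Ngfr*, the p75 neurotrophin receptor, was not called in cortex (5.48 and 6.69 FPKM against 6.24 and 4.93 FPKM) and changed by 1.52 in hippocampus (difference -1.63, adjusted p = 0.00774). *Tac2* had the largest difference of this sign, lower in cortex and higher in hippocampus (difference -2.48, adjusted p = 0.00162).

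**Figure D5:**
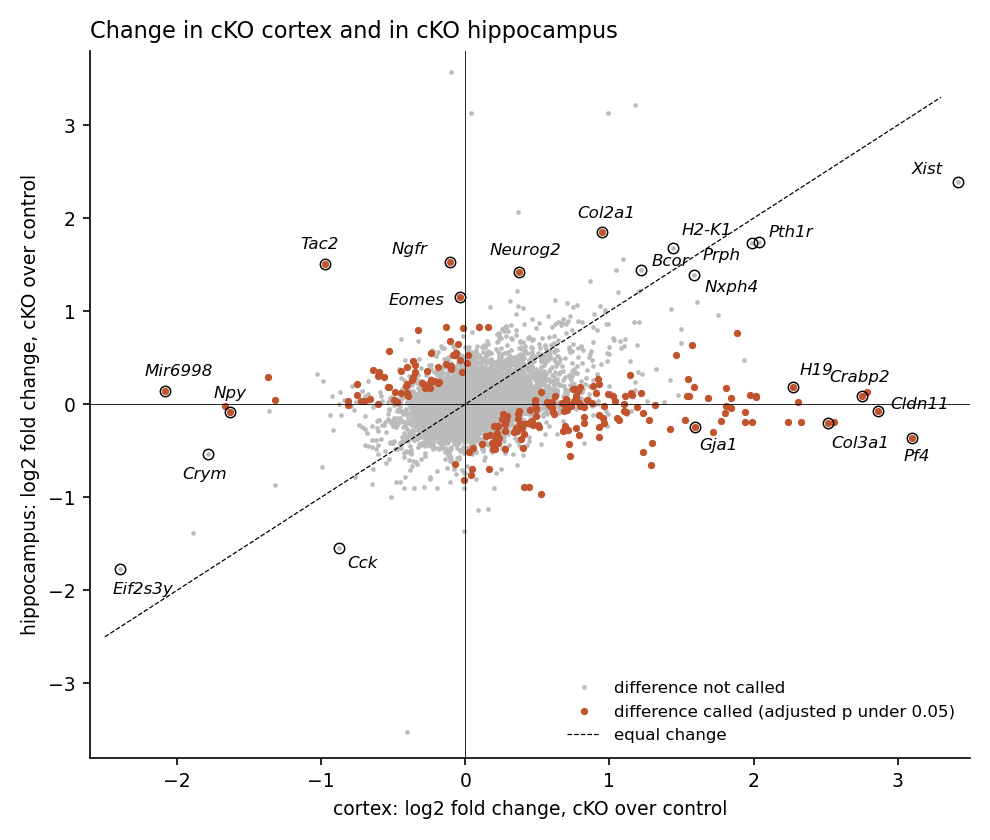
Each point is 1 of 12163 genes, with its log2 fold change in cKO cortex on the x axis and in cKO hippocampus on the y axis; orange points have a called difference between tissues and the dashed line marks equal change. Genes of the meninges list lie far right near 0 on the y axis, *Pth1r*, *Bcor* and *H2-K1* lie near the line, and *Eomes*, *Ngfr* and *Tac2* lie high with no rise in cortex. *Xist* and *Eif2s3y* are sex-linked genes.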

How the data were processed

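Poly(A) RNA of P0 cortex was sequenced in 2 control and 2 cKO libraries. The authors deposited FPKM per Ensembl gene, and the submitters' processing notes name cutadapt, STAR, Cufflinks 2.2.1, DESeq2, GRCm38 and mm10. The stated methods describe hippocampal and neurosphere libraries, so the steps for cortex are not given in the sources used here. Reads were recovered as FPKM times gene length over the value of 1 read, and 100% of values were whole within 0.01 read, at 18480515 to 21905224 reads per library. Precision is limited by 2 libraries per group.

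limma 3.58.1 (R 4.3.3, tables with Python 3.11.15) was fitted to log2(FPKM + 1) of genes averaging 0.5 FPKM or more, with 2 groups and no block. Adjusted p-values are Benjamini-Hochberg over all genes tested. The difference between tissues is the interaction in a joint limma fit with the 3 control and 3 cKO hippocampal libraries, joined by gene symbol (27180 entries, of which 2861 had no name and 1092 shared one). Members and lists were chosen with earlier results of these data known. Named genes are *Emx1* and PRC1.1, the 12 largest rises and falls among protein-coding genes averaging 1 FPKM or more with no overlap, up to 4 called genes per list and role, genes the study names for progenitors and Wnt, and the 6 largest tissue differences each way. Other genes named were chosen after their values were seen. The steps were tested on simulated data. Replicate numbers did not pair the samples (correlation of deviations -0.05). Alternatives were the pseudocount, the filter, scaling, limma-voom on recovered reads, a replicate block and leaving out each library. Promoters are RefSeq entries on GRCm38.p6. A few genes are not reported here.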

Additional observations from a re-analysis of the deposited data

Results flagged for a closer look

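The change differed between cortex and hippocampus by the limma test of the difference for the following named genes, given as the cortical minus the hippocampal log2 fold change. Among the largest cortical rises the difference was 3.46 for *Pf4*, 2.94 for *Cldn11*, 2.75 for *Ptgds*, 2.71 for *Col3a1*, 2.65 for *Colec12*, 2.51 for *Dcn*, 2.43 for *Lum*, 2.29 for *Aldh1a2*, 1.94 for *Ogn* and 1.93 for *Slc6a13*. It was 2.67 for *Crabp2*, the retinoic acid carrier, which had 91.7 to 104 FPKM in hippocampal controls. Cortex lay below hippocampus for *Tac2* (-2.48), *Ngfr* (-1.63) and *Npy* (-1.54), for *Tnfrsf18* (-0.97) and *Gpc2* (-0.85), and for the progenitor and neurogenic genes *Eomes* (-1.19), *Neurog2* (-1.05), *Pax6* (-0.67) and *Neurod1* (-0.66). The miRNA genes *Mir6998* (-2.22), *Mir7028* (-1.66) and *Mir6955* (-1.64) rest on few reads, with at most 14 in any cortex library. Adjusted p ranged from 3.07e-07 (*Crabp2*) to 0.0444 (*Npy*).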

How the results depend on the processing

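Against 746 genes higher in cKO cortex and 362 genes lower in cKO cortex, limma-voom on genes with at least 10 reads in 2 libraries gave 1357 and 544, no fold threshold 1218 and 801, and an adjusted p under 0.05 gave 59 and 9. Among protein-coding genes fitted alone 153 were lower. Leaving out 1 library gave 707 to 1222 higher and 336 to 477 lower genes, with 1222 without control 1. For the difference from hippocampus (156 above, 69 below), leaving out 1 library gave 79 to 382 above, with 382 without cortex control 1, 92 without cortex control 2, 79 without cortex cKO 1, and 88 and 100 without hippocampus controls 1 and 3. It gave 30 to 74 below, with 30 and 40 without cortex cKO 1 and 2, 37, 39 and 36 without hippocampus controls 1, 2 and 3, and 39 and 38 without hippocampus cKO 1 and 2. The cause was not tested. With the replicate number as a block, 792 genes were higher and 410 lower in cortex, and the difference was called for 88 and 34. The numbers share no stated animal or batch, and deviations correlated at -0.05, so this pairing is not part of the design. Of 1441 values of named genes under settings that kept all libraries, 1429 kept direction and side of the threshold, 8 lost the call, 4 gained it and none reversed. With 1 library left out, 66 of 488 lost the call, and the log2 fold change crossed 0 for genes that were not called, namely *Pcgf1* (-0.082 to 0.33), *Ring1* (-0.27 to 0.12), *Rybp* (-0.26 to 0.0081), *Usp7* (-0.15 to 0.015), *Skp1a* (-0.101 to 0.063, and 0.032 without control 2), *Eomes* (-0.14 to 0.058) and *Ngfr* (-0.25 to 0.036, and 0.017 without control 2). With 2 libraries per group and few reads for short RNAs, absence of a call does not show equal levels.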
